A study of Nicotiana tabacum with 9 samples.

Results

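Jasmonates are lipid-derived plant hormones of defence, wounding and flower development. They are made from a plastid fatty acid that lipoxygenase, allene oxide synthase and allene oxide cyclase turn into oxophytodienoic acid, which a reductase and peroxisomal beta-oxidation turn into jasmonic acid. The isoleucine conjugate of jasmonic acid joins the F-box protein COI1 to repressors of the JAZ group, which belong to the TIFY family, and the repressors are then broken down so that MYC factors become active. Jasmonate treatment is known to raise glandular trichome formation in tomato and nicotine synthesis in tobacco.

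The 5 genes described here were chosen by their gene identifiers in the authors' deposited gene tables, at any score, out of the 1884 genes in either table. Their names put them under jasmonate, the lipoxygenase homology gene only by the name of a domain. They do not make up the whole pathway. They are a coronatine-insensitive protein 1-like gene (COI1-like, LOC107819687), TIFY 6B-like (LOC107807057), an oxophytodienoate reductase-like gene (OPR-like, LOC107817070), jasmonate O-methyltransferase (LOC107813811) and a lipoxygenase homology domain-containing protein 1-like gene (LOC107782824). All 5 were among the 1662 genes of the AmMIXTA table and 4 were among the 974 genes of the NtZFP8 table, while 752 genes of the series stood in both tables. The lipoxygenase homology gene was the member missing from the NtZFP8 table. In the NtZFP8 table the line of COI1-like carried no description, and its name comes from the AmMIXTA table.

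The series used DNA affinity purification sequencing (DAP-seq), in which sheared genomic DNA is offered to a tagged protein on beads and the retained fragments are sequenced. The 9 samples fell into 3 groups of 3 replicates, HALO-tagged AmMIXTA, HALO-tagged NtZFP8 and HALO-tagged nuclear-targeted GFP as the negative control, all kept with leaf primordium DNA of wild-type Nicotiana tabacum Petit Havana SR1. AmMIXTA, a snapdragon factor of the R2R3-MYB type, was made in wheat germ extract and tested on DNA of another species, and NtZFP8, a zinc finger protein of the C2H2 type from tobacco itself, was made in the same way. The bound DNA was purified and carried no chromatin proteins, and the assay measures no RNA, so neither the state of these genes nor their expression in the tissue was observed. Each score and p-value below is the authors' own, taken from their deposited peak lists, and belongs to a peak called for a protein against GFP. The lists used here give no value per replicate and none for GFP alone. No spread between replicates and no test between AmMIXTA and NtZFP8 can therefore be given for any gene below, and the depth behind each peak is unknown. The deposited lists held 29197 AmMIXTA and 20957 NtZFP8 peaks.

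Both proteins had peaks past the authors' criteria at COI1-like, TIFY 6B-like and jasmonate O-methyltransferase. The criteria were a peak shape score above 2, a value without a unit, and a p-value under 0.05. AmMIXTA passed them at 4 of the 5 genes, while 72.0% of all genes of its table passed. NtZFP8 also passed them at 4 of the 5 genes, all those listed for it, against 77.4% of the genes of its table. These 3 genes passed for both, beside 31.5% of the genes of either table. That share is lowered by genes listed for 1 protein (60.1% of either table), which could not pass for both. Of the 752 genes in both tables, 593 passed for both. The peaks of the 3 genes overlapped, as they did at 572 (96.5%) of these 593 genes. Counted by peaks, 6 of the 7 listed AmMIXTA peaks of these genes passed, beside 70.3% of all listed AmMIXTA peaks, and 5 of 5 NtZFP8 peaks passed, beside 72.6%. These shares are not set apart from those of the tables as a whole.

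The scores of the 5 genes were moderate, and fewer of them passed under stricter rules. With a score above 3, AmMIXTA passed at jasmonate O-methyltransferase and TIFY 6B-like (2 genes, beside 37.2% of its table) and NtZFP8 at COI1-like, OPR-like and jasmonate O-methyltransferase (3 genes, beside 46.4%). Jasmonate O-methyltransferase was the 1 gene left for both, beside 19.3% of the genes of either table. That share is again lowered by genes listed for 1 protein. Of the 752 genes in both tables, 364 passed for both at this score, beside 1 of the 4 jasmonate genes in both tables. By peaks, 2 of 7 AmMIXTA peaks and 3 of 5 NtZFP8 peaks had such a score, beside 35.1% and 37.8% of those listed. With the p criterion divided by the number of listed peaks, a rule chosen after seeing the data, 0 of the 12 peaks assigned to these genes passed, beside 15.9% of all AmMIXTA and 18.3% of all NtZFP8 peaks.

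**Figure D1:**
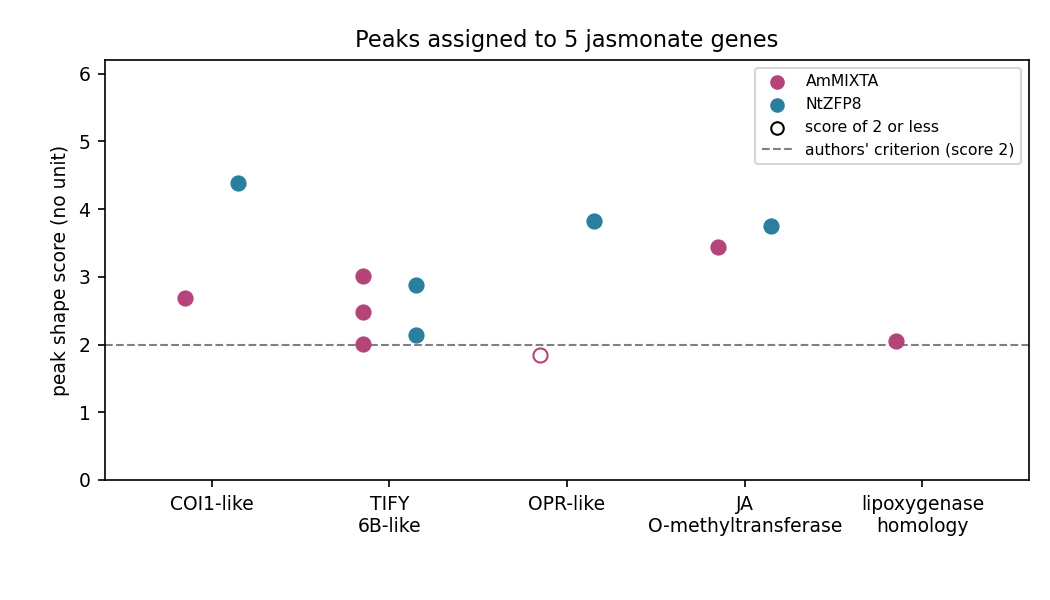
Peak shape score (vertical axis, no unit) of every peak that the deposited tables assign to the 5 jasmonate genes, with AmMIXTA on the left and NtZFP8 on the right of each gene. Each point is a peak, drawn without error since the lists used here give no replicate values, the dashed line is the authors' criterion of 2, and the open point is the AmMIXTA peak at OPR-like (1.85). The AmMIXTA points lie between 1.85 and 3.43 and the NtZFP8 points between 2.14 and 4.38.

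COI1-like is named for the F-box subunit of the ubiquitin ligase that perceives jasmonate and the bacterial mimic coronatine. It had 1 AmMIXTA peak at 128816 to 129054 of the genome sequence NW_015790340.1, with a score of 2.68 (the authors' p = 0.00368), and 1 NtZFP8 peak at 128795 to 129062, with a score of 4.38 (the authors' p = 6.05e-06). The NtZFP8 score was the highest of any peak assigned to these 5 genes for either protein. Within its own list, the AmMIXTA peak stood above 57.3% of the listed peaks and the NtZFP8 peak above 80.3%. Lists of unequal length were ranked separately, so these positions do not measure a difference in binding.

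The AmMIXTA peak at COI1-like was 239 bp wide, and 5.64% of the listed AmMIXTA peaks were narrower. It lay wholly inside the 268 bp NtZFP8 peak, of which the common stretch of 239 bp made up 89.2%. The centres lay 41 bp apart, and 16.3% of the 10091 overlapping pairs past the criteria in the series had centres as far apart or farther. No other peak of either protein was listed on this sequence.

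TIFY 6B-like belongs to the family of JAZ repressors, and in Arabidopsis the name TIFY6B stands for JAZ3. It was the only one of the 5 genes with more than 1 peak per protein, with 3 AmMIXTA peaks and 2 NtZFP8 peaks on NW_015943873.1. Of the AmMIXTA table, 2.77% of genes had 3 or more peaks, and 14.6% of the NtZFP8 table had 2 or more. The highest AmMIXTA peak assigned to it was the first along the sequence (8596 to 8969, score 3.02, the authors' p = 0.00127). The highest NtZFP8 peak assigned to it was the second (16241 to 16533, score 2.88, the authors' p = 0.00198).

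Peaks of the 2 proteins met at 2 places of TIFY 6B-like, with the AmMIXTA score the higher at the first and the NtZFP8 score the higher at the second. At the first place AmMIXTA had 3.02 and NtZFP8 had 2.14 (8673 to 8981), with a common stretch of 297 bp and centres 41 bp apart. At the second place AmMIXTA had 2.01 (16318 to 16678) and NtZFP8 had 2.88. There the common stretch was 216 bp and the centres lay 113 bp apart, a distance reached or passed by 6.18% of overlapping pairs past the criteria. The AmMIXTA score at the second place lay just over the criterion, at 2.013 against 2. The remaining AmMIXTA peak, between these places (15385 to 15818, score 2.48), overlapped no NtZFP8 peak, and the nearest NtZFP8 centre lay 851 bp away.

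Most listed peaks were tied to no gene, as the gene tables named 6.19% of the AmMIXTA and 5.70% of the NtZFP8 peaks. Such peaks also stood beyond the second place of TIFY 6B-like, assigned to no gene in either table. The highest AmMIXTA peak on the sequence was one of these, at 18371 to 18740 with a score of 5.51 (the authors' p = 1.83e-08), above 88.7% of the listed AmMIXTA peaks. It overlapped an NtZFP8 peak (18357 to 18605, score 3.09) by 235 bp, with centres 31 bp apart. The highest NtZFP8 peak on the sequence, at 19034 to 19350 with a score of 4.53, overlapped no AmMIXTA peak, and neither did the AmMIXTA peak at 17538 to 17869 (score 2.99) overlap one of NtZFP8. The centre of the AmMIXTA peak of 5.51 lay 2053 bp and that of the NtZFP8 peak of 4.53 lay 2662 bp from the nearest peak centre assigned to TIFY 6B-like. Peaks under the criterion completed the group, with scores of 1.90 for AmMIXTA (16699 to 17148) and 1.75 for NtZFP8 (19620 to 19938).

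In all, 6 AmMIXTA and 5 NtZFP8 peaks lay within 11343 bp of this sequence. As many listed peaks or more were found on 1.36% of the 21197 sequences with an AmMIXTA peak and on 2.88% of the 13913 with an NtZFP8 peak. The lengths of the sequences were not used here, and longer sequences can hold more peaks. Counting peaks past the criteria with a centre up to 5000 bp from a peak of the gene and not assigned to it, TIFY 6B-like had 2 of AmMIXTA and 2 of NtZFP8. The other 4 jasmonate genes had none, as did 93.7% of the 1884 genes, and 1.33% had 4 or more.

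**Figure D2:**
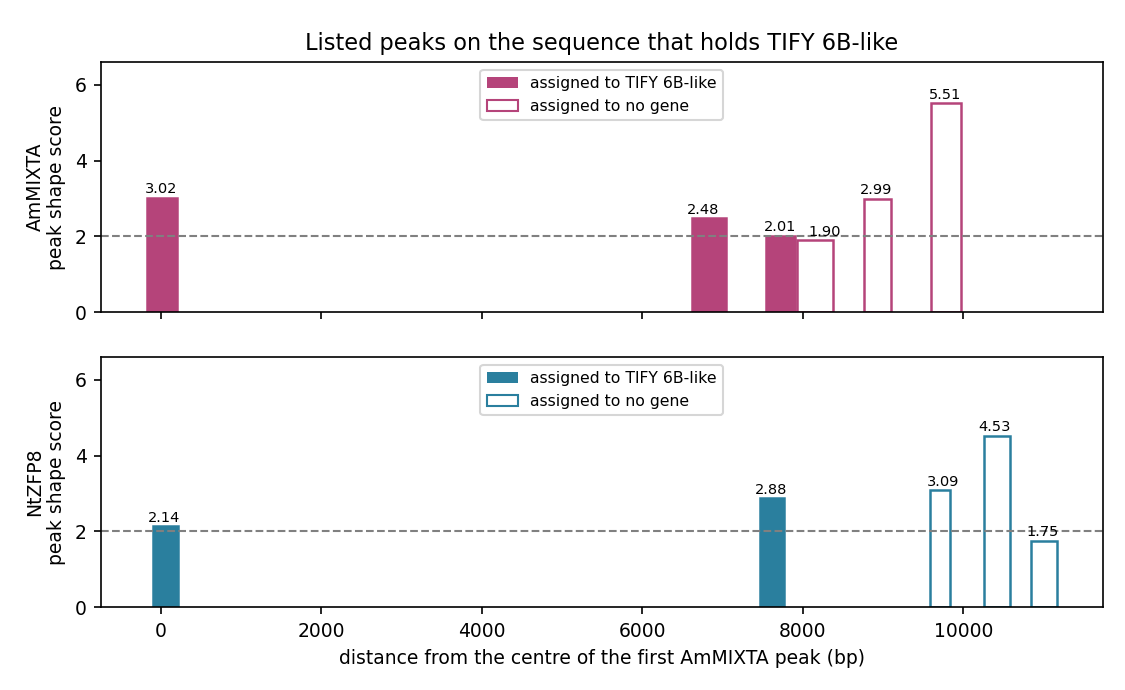
Map of the listed peaks on the sequence that holds TIFY 6B-like, with AmMIXTA above and NtZFP8 below. The horizontal axis gives the distance in bp from the centre of the first AmMIXTA peak, bar width the peak's extent and bar height its peak shape score (no unit), and the dashed line is the criterion of 2. Filled bars were assigned to TIFY 6B-like and open bars to no gene, among them the highest bar of each protein, 5.51 for AmMIXTA and 4.53 for NtZFP8.

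OPR-like is named for the reductases of oxophytodienoic acid. In plants this family has members that act in jasmonate synthesis and others that do not, and the deposited name does not say which kind this gene is. It had 1 AmMIXTA peak at 3545 to 3904 of NW_015815476.1, with a score of 1.85 (the authors' p = 0.0322), and 1 NtZFP8 peak at 3645 to 3939, with a score of 3.82 (the authors' p = 6.7e-05). The AmMIXTA score was under the criterion, so the gene passed for NtZFP8 alone. The regions overlapped all the same, over 260 bp, with centres 5 bp apart, a distance reached or passed by 84.3% of overlapping pairs past the criteria. Of the 754 genes past the criteria for NtZFP8, 60 (7.96%), this gene among them, were listed for AmMIXTA at a score of 2 or less. A score under the criterion for AmMIXTA does not show that the proteins differ there, since no replicate values allow that test.

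Jasmonate O-methyltransferase is named for the enzyme that turns jasmonic acid into its volatile methyl ester. It had 1 AmMIXTA peak at 10864 to 11312 of NW_015789117.1, with a score of 3.43 (the authors' p = 0.000297), the highest AmMIXTA score among peaks assigned to the 5 genes. Its NtZFP8 peak at 11005 to 11331 had a score of 3.75 (the authors' p = 8.98e-05). The AmMIXTA score stood above 72.4% of the peaks listed for that protein and the NtZFP8 score above 73.9% of its own list, the closest positions of any of the 4 genes listed for both proteins. The common stretch measured 308 bp, or 68.6% of the AmMIXTA peak and 94.2% of the NtZFP8 peak. The centres lay 3 bp apart, the shortest distance among the jasmonate genes, and 90.2% of overlapping pairs past the criteria had centres as far apart or farther.

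The lipoxygenase homology domain gene carries the name of an animal protein built of domains that lipoxygenases also have. The name does not make it a lipoxygenase, and no part in jasmonate synthesis follows from it. It had 1 AmMIXTA peak at 293781 to 294191 of NW_015908995.1, with a score of 2.06 (the authors' p = 0.0198), close above the criterion and above 33.0% of the listed AmMIXTA peaks. No NtZFP8 peak was listed at any score on this sequence. Of the 1196 genes past the criteria for AmMIXTA, 532 (44.5%), this gene among them, were absent from the NtZFP8 table.

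**Figure D3:**
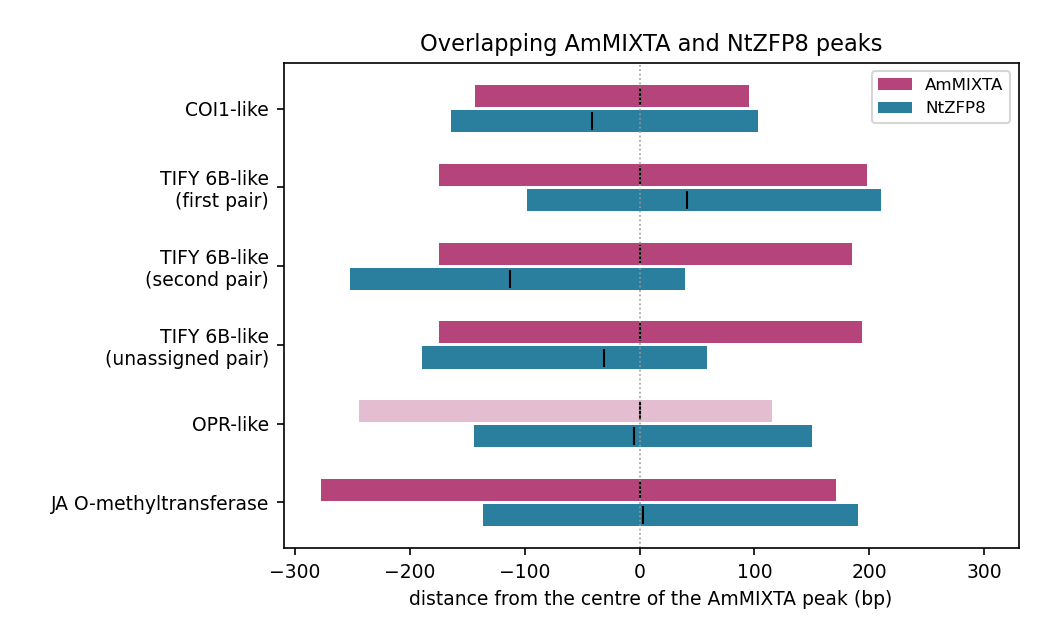
Extent of the overlapping AmMIXTA (upper bar) and NtZFP8 (lower bar) peaks at the jasmonate genes, as distance in bp from the centre of the AmMIXTA peak. Black ticks mark the peak centres and the pale bar is the AmMIXTA peak at OPR-like, under the criterion. Centres lie 3 bp apart at jasmonate O-methyltransferase, 5 bp at OPR-like, 41 bp at COI1-like and at the first place of TIFY 6B-like, 113 bp at its second place and 31 bp at the pair assigned to no gene.

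Of the 6 AmMIXTA peaks past the criteria at the 5 genes, 4 overlapped an NtZFP8 peak past the criteria by at least 1 bp, beside 49.0% of all such AmMIXTA peaks. Of the 5 NtZFP8 peaks, 4 overlapped an AmMIXTA peak past the criteria, beside 66.3% of all such NtZFP8 peaks, and the fifth, at OPR-like, lay on the AmMIXTA peak under the criterion. AmMIXTA and NtZFP8 peaks share their GFP controls, so the overlaps are given as a description. The 4 overlapping pairs lay at 3 genes and are not independent of each other at TIFY 6B-like. At genes past the criteria for both proteins, the closest overlapping centres lay a median of 13 bp apart (interquartile range 6 to 24, 572 genes). Jasmonate O-methyltransferase lay under this range, at 3 bp, and COI1-like and TIFY 6B-like lay above it, at 41 bp each.

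By the highest score assigned to each gene, the order for AmMIXTA was jasmonate O-methyltransferase (3.43), TIFY 6B-like (3.02), COI1-like (2.68), the lipoxygenase homology gene (2.06) and OPR-like (1.85). The order for NtZFP8 was COI1-like (4.38), OPR-like (3.82), jasmonate O-methyltransferase (3.75) and TIFY 6B-like (2.88). Neither order can be tested, since no error is known for a score. The median highest score was 2.55 over all genes of the AmMIXTA table (interquartile range 1.94 to 3.81) and 2.90 over those of the NtZFP8 table (2.04 to 4.62). All 5 jasmonate genes lay under the upper quartile of each table they stood in, and OPR-like lay under the lower quartile for AmMIXTA. Among genes past for both proteins, 42.5% of 593 had the higher score in the NtZFP8 table, as COI1-like and jasmonate O-methyltransferase did.

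**Figure D4:**
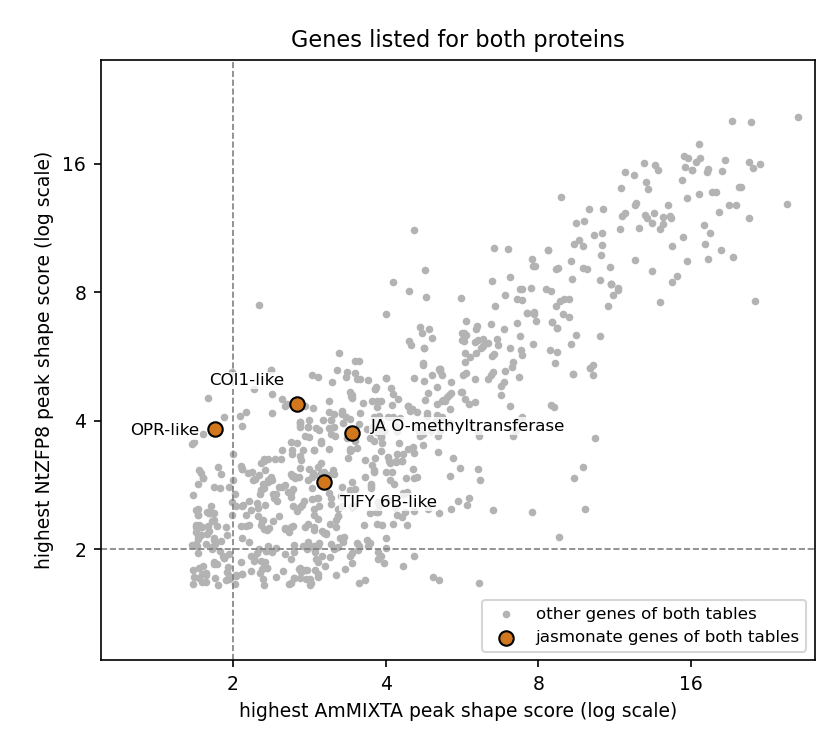
Highest AmMIXTA peak shape score (horizontal axis, log scale) against highest NtZFP8 peak shape score (vertical axis, log scale) for the 752 genes in both deposited tables. Each point is a gene, dashed lines mark the criterion of 2, and the 4 jasmonate genes in both tables are drawn in orange. Their AmMIXTA scores lie between 1.85 and 3.43 and their NtZFP8 scores between 2.88 and 4.38, with OPR-like (1.85 and 3.82) left of the AmMIXTA criterion.

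The described genes whose pair of highest scores was nearest, by Euclidean distance of log2 scores over the 2 proteins, were of mixed kinds. For COI1-like, among 351 genes that also had 1 peak past the criteria per protein, these were inositol-pentakisphosphate 2-kinase-like (LOC107764130, 2.66 for AmMIXTA and 4.33 for NtZFP8, distance 0.0198) and a pectinesterase PPE8B-like gene (LOC107792167, 2.78 and 4.32, distance 0.0565). For jasmonate O-methyltransferase they were nuclear speckle splicing regulatory protein 1-like (LOC107765922, 3.48 for AmMIXTA and 3.58 for NtZFP8) and COP9 signalosome subunit 2-like (LOC107784887, 3.55 and 3.93). Fewer than 2 described genes had as many peaks per protein as TIFY 6B-like. With any number of peaks, the nearest to it were ABSCISIC ACID-INSENSITIVE 5-like protein 2 (LOC107815582, 3.10 for AmMIXTA and 2.98 for NtZFP8) and trichome birefringence-like 33 (LOC107816582, 3.02 and 3.04). A likeness of 2 scores without error says nothing of a common role.

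Genes of the pathway were sought by 20 words in the gene descriptions, of which 9 were found. They gave 11 genes in either table. A pair of these, oligosaccharyltransferase subunits called DAD1 after a cell death gene, matched by accident (LOC107768807, 4.93, and LOC107809964, 1.77, both for AmMIXTA). Without them 9 genes were left, the 5 jasmonate genes already described and 4 further ones, and the counts that follow cover both kinds. The lipoxygenase homology gene, matched by a domain name alone, was kept in these counts and is among the genes that passed for AmMIXTA. For AmMIXTA, 6 of 7 listed genes passed, against 72.0% of its table, with a median highest score of 3.02. For NtZFP8, 4 of 6 passed, against 77.4% of its table, with a median of 3.31. Of the passing genes, 4 for AmMIXTA and all 4 for NtZFP8 belonged to the 5 jasmonate genes. No gene described as allene oxide cyclase, MYC2, TOPLESS or NINJA was in either table, and no lipoxygenase was there other than by the domain name above. Genes without a description or called uncharacterized could not be found by words, and these numbered 484 for AmMIXTA and 320 for NtZFP8.

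The 4 further pathway genes were each listed for 1 protein, as were 1132 (60.1%) of the 1884 genes of either table. Mediator subunit 25, which in Arabidopsis binds MYC2 and takes part in jasmonate responses, was met in a pair of AmMIXTA genes with close scores. LOC107826460 had 4.03 (35973 to 36450 of NW_015844125.1, the authors' p = 2.76e-05) and LOC107787732 had 3.95 (24016 to 24538 of NW_015914889.1, the authors' p = 3.85e-05). Both scores were above those of all AmMIXTA peaks assigned to the 5 jasmonate genes, and no NtZFP8 peak was listed at any score on either sequence. For NtZFP8, allene oxide synthase-like (LOC107832778), of the step after lipoxygenase, had 1.81 (132388 to 132658 of NW_015793128.1). Phospholipase A1-Igamma2-like (LOC107808363), of a lipase group that includes enzymes releasing the fatty acid precursor, had 1.69 (15544 to 15959 of NW_015946081.1). Both NtZFP8 scores were under the criterion, and no AmMIXTA peak was listed on those sequences.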

How the data were processed

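Per the labels' protocols, DNA of 3 wild-type plants was sonicated for 20 min, 1000 ng was kept for 1 h at 25 °C with protein on 20 µl of beads, and bound DNA was eluted at 98 °C. Per the series' design text, reads were mapped to the tobacco genome of Sierro and colleagues and peaks were called by the authors against GFP. The aligner, the caller, their versions and how replicates were handled: not given in the sources used here. The deposited score is the authors' value per peak. The deposited p-value is that of a one-sided normal test of the score (largest gap 4.3e-16 for AmMIXTA and 0.00543 for the rounded NtZFP8 values), is not adjusted for the number of peaks, and both lists start at a score of 1.64. Because lines hold no values per replicate, the planned count test was not run.

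Gene lines were tied to peaks by sequence and centre, which matched all 1874 and 1235 lines, and the unrounded list scores decided the criteria. Regions past a sequence's start (2326 and 305) were taken from position 1 and wrapped ones (314 and 220) kept to their first part. Blank NtZFP8 descriptions (160) were taken from other lines of the same gene, if any. The rule tying peaks to genes is not given, and the tables name 6.19% and 5.70% of listed peaks. Coordinates are as deposited. A RefSeq gene table of another assembly held all 5 genes and gave no value. Sequences, promoters and motifs were not analysed here, for want of sequence of these genes. Overlap counting was checked on simulated data. Python 3.11.15, numpy 2.4.6 and scipy 1.17.1 were used. Named genes are the 5 genes, the word list's genes, any gene assigned to a neighbouring peak (none), and the 2 described genes nearest in scores to each gene past for both proteins. The genes and lists were chosen with earlier results of these data known.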

Additional observations from a re-analysis of the deposited data

How the results depend on the processing

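With a score above 3, AmMIXTA passed at 2 of the 5 genes (jasmonate O-methyltransferase and TIFY 6B-like) with 2 peaks, NtZFP8 at 3 genes with 3 peaks, and both proteins at 1 gene, jasmonate O-methyltransferase. An alternative chosen after seeing the data divided the p criterion of 0.05 by the number of listed peaks, which needs a score of 4.64 for AmMIXTA and 4.57 for NtZFP8. It left 0 of the 5 genes and 0 of their peaks for either protein or for both, 1 listed pathway gene for AmMIXTA (the accidental DAD1 match) and 0 for NtZFP8. The unassigned AmMIXTA peak of 5.51 beside TIFY 6B-like passed it. The lists were already filtered on p, so more regions than those listed were tested. Within 2000 bp, 1 neighbouring peak remained of the 4 within 5000 bp. Over the other alternatives run (any listed score, the other overlap rules, a window of 20000 bp, and the list without accidental matches) each count stayed within 1.5 times its value. Leaving out replicates could not be done, and depth per sample is unknown. No paired analysis was possible because the lists hold no values per replicate.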

Other observations

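On the sequence of the mediator subunit 25-like gene LOC107787732, a further AmMIXTA peak stood at 30047 to 30487 with a score of 3.00, its centre 5959 bp from the peak assigned to the gene, and was assigned to no gene. On the sequence of the DAD1 gene LOC107768807, the listed peak nearest to the one assigned to the gene was another AmMIXTA peak, 34025 bp away between centres.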
